A study of Mus musculus with 24 samples.

Results

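The genes described here are interferon-stimulated genes and immunity GTPases, measured in mouse lung: Irgm1, Igtp, Gbp2, Isg15, Ifit1, Ifit2, Ifit3, Irf7 and Eif2ak2. A probe set was taken when the array annotation gave it a single gene symbol and that symbol was one of these 9. This found 10 probe sets of 8 genes, out of 22626 probe sets on the array and 12393 genes with a probe set of their own. The probe set that lists Isg15, a ubiquitin-like protein, also lists Gm9706, so no value of Isg15 is given. Gbp2 and Eif2ak2 have 2 probe sets each and the other genes have 1.

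Interferons are secreted when cells sense microbes, and their receptors switch on a common set of genes through STAT and IRF transcription factors. Type I interferons act mainly through the interferon-stimulated response element (ISRE) in promoters, and interferon-gamma through the gamma-activated site (GAS). In the lung these genes are known as a first defence against respiratory viruses and intracellular bacteria. Irf7 amplifies the production of type I interferon. Eif2ak2 encodes the kinase PKR, which senses double-stranded RNA and shuts down translation. The Ifit proteins bind viral RNA. Irgm1, Igtp (also called Irgm3) and Gbp2 are GTPases, induced above all by interferon-gamma, that act on the membranes around intracellular pathogens.

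Lung RNA came from mice that breathed filtered air, diesel exhaust at 500 ug/m3 (DE 500) or diesel exhaust at 2000 ug/m3 (DE 2000), for 4 hours a day over 5 days. Each exposure was combined with 100 ug of ovalbumin (OVA), a foreign protein used as an allergen, on 3 days, or with saline. The 6 groups had 4 arrays each, 24 in all: air with OVA, DE 500 with OVA, DE 2000 with OVA, air with saline, DE 500 with saline and DE 2000 with saline. The labels give no strain, sex or age, and do not state that each replicate is its own mouse. If replicates share mice, the p-values measure technical spread only. The design asks what exhaust does alone, what OVA does alone, and whether the response to exhaust depends on OVA.

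Values are log2 signals, in which 1 unit is a 2-fold difference. Comparisons were fitted with limma on all arrays, with Benjamini-Hochberg (BH) adjusted p-values over the 13575 probe sets that passed a limit on signal. A probe set is called when its adjusted p is below 0.05. Errors written with ± are standard errors (SE) except where marked as standard deviations (SD), and the number of arrays limits the precision of all of them. Of the 10 probe sets, 9 were above the limit. The second probe set of Eif2ak2 had a mean log2 signal of 6.36, a signal of 82.2 against a limit of 138, and was not tested. Markers of lung epithelium were strong on all arrays: the summed signal of 5 genes of alveolar type 2 cells was 71900 to 115000, and that of 3 genes of club cells 53300 to 94100. In whole lung, fewer cells of a type and less RNA per cell cannot be told apart.

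Control measures differed between the arrays and move with several of the results. For Gapdh and actin, control probe sets at both ends of the transcript give a log2 3'/5' ratio, which is read as high where RNA is broken. Its mean over the 2 genes was -0.13 to 2.02 on the 12 OVA arrays (median 0.05) and 0.10 to 4.38 on the 12 saline arrays (median 1.58). The DE 500 saline arrays stood at 4.38, 0.33, 0.10 and 3.77, and DE 2000 with OVA held 1 array, replicate 4, at 2.02 while its others lay between -0.13 and 0.09. The log2 signal of the B1 repeat control was 10.85 to 12.43 with OVA (median 11.60) and 12.08 to 13.83 with saline (median 12.97). What it reflects on these arrays was not tested. Apart from replicate 4 of DE 2000 with OVA, every OVA array lay below every saline array in this signal. With it as a covariate, 28 probe sets were called for OVA in air, against 2004 without it. A call lost with this covariate therefore cannot tell OVA and the B1 signal apart. Replicates 1 and 4 of DE 500 with saline and replicate 4 of DE 2000 with OVA are the 3 arrays of high ratio named below. Differences of the members that were called, or had an unadjusted p below 0.05 in DE 500 with saline or for OVA in air, are given with fits that take the ratio or the B1 signal as a covariate or leave these arrays out.

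Promoter windows show which response elements stand in front of these genes. The windows run from 250 bases before to 50 after the annotated start (RefSeq, GRCm38.p6), and all 8 genes matched, Ifit2 with 2 windows. The core of the ISRE was searched as GAAANNGAAA and, for the other strand, TTTCNNTTTC, and the GAS as TTCNNNGAA, which reads the same on both strands. An ISRE core stood in the windows of 6 of the 8 genes, against 3.44% of all 32851 windows, and was not found in the windows of Ifit2 and Irf7. A GAS stood in the windows of 3 genes, Igtp, Ifit2 and Eif2ak2, against 8.30% of all windows. The following 5 stretches show the cores, in capitals, of 4 genes with 10 bases on each side, in the direction of transcription. The Irgm1 stretch, at chr11:48871425-48871460 on the minus strand, holds 2 overlapping cores that begin 30 and 24 bases before the start. The Igtp core begins 34 bases before the start, at chr11:58199512-58199541 on the plus strand. Ifit1 has a pair of cores at chr19:34640775-34640823 on the plus strand, the first 104 bases before the start. Ifit3 has its cores 156 and 122 bases before the start, at chr19:34583363-34583392 and chr19:34583397-34583426 on the plus strand.
Irgm1: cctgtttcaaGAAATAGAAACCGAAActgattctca
Igtp: tctaggaactGAAACTGAAAgctgttcggg
Ifit1: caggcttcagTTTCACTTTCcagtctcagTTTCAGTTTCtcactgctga
Ifit3, first core: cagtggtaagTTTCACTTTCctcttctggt
Ifit3, second core: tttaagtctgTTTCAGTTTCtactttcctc

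The whole windows are shown for the 3 genes that were called in a comparison with OVA, with any ISRE core in capitals. The Eif2ak2 window is chr17:78882523-78882822 on the minus strand, and its core lies 18 bases after the start. The Gbp2 window is chr3:142620413-142620712 on the plus strand, with its core 59 bases before the start. The first Ifit2 window is chr19:34550444-34550743 on the plus strand and holds no ISRE core. A match of letters is a description of the window and not a measured binding site.
Eif2ak2: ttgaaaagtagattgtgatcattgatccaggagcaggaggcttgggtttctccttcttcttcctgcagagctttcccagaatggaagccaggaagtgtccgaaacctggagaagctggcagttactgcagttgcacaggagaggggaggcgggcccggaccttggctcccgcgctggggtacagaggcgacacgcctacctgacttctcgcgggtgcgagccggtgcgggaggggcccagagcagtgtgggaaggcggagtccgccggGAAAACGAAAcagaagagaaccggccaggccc
Gbp2: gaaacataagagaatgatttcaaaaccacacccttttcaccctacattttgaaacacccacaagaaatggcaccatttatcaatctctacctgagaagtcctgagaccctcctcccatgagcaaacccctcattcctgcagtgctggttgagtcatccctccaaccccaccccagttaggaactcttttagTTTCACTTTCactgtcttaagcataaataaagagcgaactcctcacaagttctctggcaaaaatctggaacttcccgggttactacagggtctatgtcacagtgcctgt
Ifit2: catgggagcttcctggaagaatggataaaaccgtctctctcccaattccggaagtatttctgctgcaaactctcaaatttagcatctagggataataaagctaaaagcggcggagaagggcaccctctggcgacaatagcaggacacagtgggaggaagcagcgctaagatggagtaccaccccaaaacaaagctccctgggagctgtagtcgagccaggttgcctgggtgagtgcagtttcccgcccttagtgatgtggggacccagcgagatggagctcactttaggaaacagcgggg

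**Figure D1:**
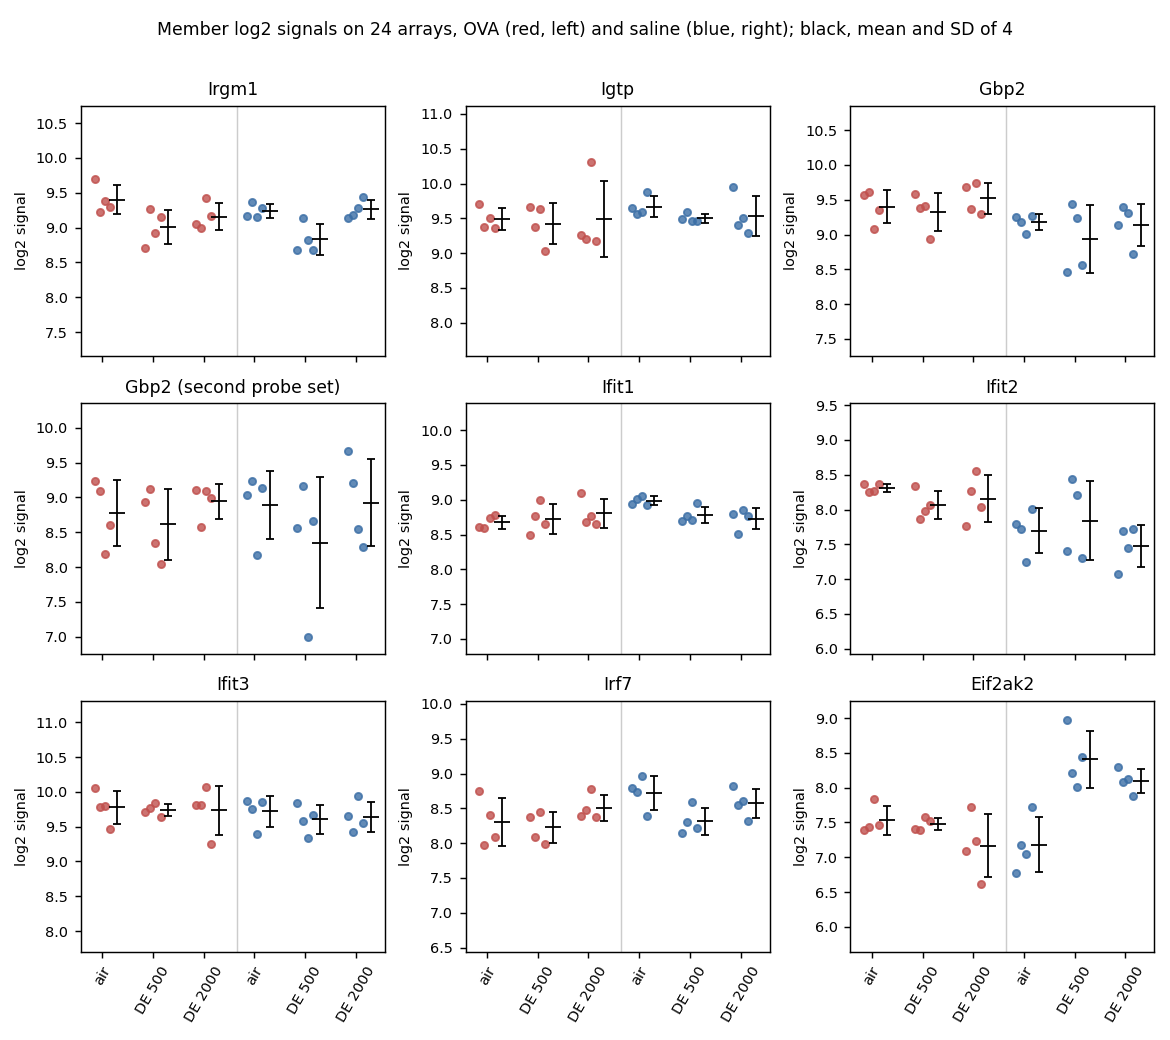
Log2 signal of the 9 tested probe sets on each of the 24 arrays (points), with OVA arrays on the left in red and saline arrays on the right in blue, and the mean and SD of 4 arrays in black. Each panel has its own range of the same height. Eif2ak2 has the widest spread of group means (1.24) and Ifit3 the narrowest (0.17).

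Eif2ak2 had the widest range of group means among the 9 tested probe sets, 1.24 on the log2 scale, and stood highest after exhaust with saline. With saline, the first probe set of Eif2ak2 had log2 signals of 6.77, 7.18, 7.05 and 7.72 in air. They were 8.97, 8.21, 8.02 and 8.43 in DE 500 with saline. They were 8.30, 8.09, 8.13 and 7.87 in DE 2000 with saline. Every exhaust array of the saline arm lay above every air array of that arm. With OVA, Eif2ak2 had 7.40, 7.43, 7.84 and 7.46 in air. In DE 500 with OVA it had 7.40, 7.40, 7.57 and 7.52, and in DE 2000 with OVA 7.09, 7.73, 7.24 and 6.62. The 3 groups with OVA overlapped each other and the air group with saline. In order of mean the groups were DE 500 with saline (8.41), DE 2000 with saline (8.10), air with OVA (7.53), DE 500 with OVA (7.47), air with saline (7.18) and DE 2000 with OVA (7.17), and the step between 8.10 and 7.53 was the only one between neighbours whose arrays did not overlap.

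Eif2ak2 averaged 8.41 ± 0.41 in DE 500 with saline and 7.18 ± 0.40 in air with saline (SD, n = 4 each). The difference was 1.23 ± 0.23, a 2.34-fold higher signal (95% interval 0.75 to 1.70), and did not pass (limma, adjusted p = 0.0658, unadjusted p = 2.06e-05). DE 2000 with saline averaged 8.10 ± 0.17, and its difference from air with saline was 0.92 ± 0.23, or 1.89-fold (interval 0.44 to 1.39, limma adjusted p = 0.137). The difference from air in DE 500 passed in several other fits. With a pseudocount of 50 it was 0.99 (limma, adjusted p = 0.048), and with 1 probe set per gene 1.23 (adjusted p = 0.0394). With the ratio of RNA quality as a covariate it was 1.21 (limma, adjusted p = 0.0233), with the B1 signal 1.22 (adjusted p = 0.0294), and without the 3 arrays of high 3'/5' ratio 0.93 (adjusted p = 0.0188). Fitted on the 8 arrays of DE 500 and air with saline alone it was 1.23 (limma, adjusted p = 0.902). Single arrays changed the call as well: it passed without replicate 4 of air with saline (1.41, adjusted p = 0.00326) and without replicate 2 or 4 of DE 2000 with OVA (1.23 each, adjusted p = 0.0372 and 0.0238). For DE 2000 the difference passed without replicate 4 of air with saline (1.10, limma adjusted p = 0.0191), with array weights (0.89, adjusted p = 0.018) and without the 3 arrays of high ratio (0.92, adjusted p = 0.0371). The DE 500 saline arrays with 3'/5' ratios of 0.33 and 0.10 had Eif2ak2 at 8.21 and 8.02, and those at 4.38 and 3.77 had 8.97 and 8.43. All of them lay above all 4 air arrays of the saline arm. The part of RNA quality in the difference was not tested beyond these fits.

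With OVA, the exhaust differences of Eif2ak2 were -0.06 ± 0.23 in DE 500 (interval -0.53 to 0.42) and -0.36 ± 0.23 in DE 2000 (interval -0.84 to 0.11). The difference between these responses and those with saline, the interaction, was -1.28 ± 0.32 at each dose. It did not pass at either (limma, adjusted p = 1 for DE 500 and 0.363 for DE 2000). Without replicate 4 of air with saline, the interaction for DE 2000 was -1.46 and passed (limma, adjusted p = 0.0381). The second probe set of Eif2ak2, annotated to the same source sequence and below the limit, averaged 5.97 ± 0.63 in air, 6.56 ± 0.40 in DE 500 and 6.30 ± 1.43 in DE 2000 with saline (SD), and the arrays of these 3 groups overlapped. Its OVA differences were 0.71 ± 0.65 in air, 0.19 ± 0.65 in DE 500, -0.39 ± 0.65 in DE 2000 and 0.17 ± 0.38 averaged over exposures, none of them tested, and their 95% intervals all held 0.

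By its first probe set, Eif2ak2 was lower with OVA within both exhaust doses. Within DE 500 it averaged 7.47 ± 0.09 with OVA and 8.41 ± 0.41 with saline (SD, n = 4 each). The difference was -0.93 ± 0.23, a 1.91-fold lower signal (interval -1.41 to -0.46, limma adjusted p = 0.0144), and all 4 OVA arrays lay below all 4 saline arrays. Within DE 2000 it averaged 7.17 ± 0.45 with OVA and 8.10 ± 0.17 with saline. That difference was -0.93 ± 0.23 as well (interval -1.41 to -0.45, limma adjusted p = 0.00765), again without overlap. In air the difference was 0.35 ± 0.23 (interval -0.12 to 0.83, limma adjusted p = 0.294). The call within DE 500 ended with the 3'/5' covariate (-0.83, limma adjusted p = 0.157), with the B1 covariate (-0.88, adjusted p = 0.248) and without the 3 arrays of high ratio (-0.64, adjusted p = 0.261). It was also lost in a fit of the 8 arrays alone (-0.93, adjusted p = 0.058) and without replicate 1 (-0.75, adjusted p = 0.0832) or replicate 4 (-0.92, adjusted p = 0.0527) of DE 500 with saline. The call within DE 2000 held in all 24 fits that left out 1 array (adjusted p 0.00293 to 0.0269) and was lost with the B1 covariate (-0.86, adjusted p = 0.12).

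Irf7, the transcription factor, lay within 0.50 log2 units across the groups. It averaged 8.31 ± 0.19 in DE 500 with saline and 8.72 ± 0.24 in air with saline (SD, n = 4 each). The difference of -0.41 ± 0.18 (interval -0.77 to -0.04) had an unadjusted p of 0.0294 in limma and did not pass (adjusted p = 0.545). It was -0.39 with the 3'/5' covariate, -0.40 with the B1 covariate and -0.27 without the 3 arrays of high ratio (limma, adjusted p = 0.308, 0.366 and 0.444). In DE 2000 with saline Irf7 averaged 8.57 ± 0.21, a difference from air of -0.15 ± 0.18. With OVA the exhaust differences were -0.08 ± 0.18 for DE 500 and 0.20 ± 0.18 for DE 2000. OVA against saline gave -0.42 ± 0.18 in air (limma, adjusted p = 0.102), -0.09 ± 0.18 in DE 500 and -0.07 ± 0.18 in DE 2000. In air, its arrays were at 8.75, 7.98, 8.40 and 8.08 with OVA and at 8.80, 8.73, 8.97 and 8.39 with saline, and the groups overlapped. That difference was -0.48 with the 3'/5' covariate and -0.49 with the B1 covariate (limma, adjusted p = 0.2 and 0.414). It passed with quantile normalization (-0.50, adjusted p = 0.044), with arrays scaled to the same median (-0.54, adjusted p = 0.0353) and with the replicate block (-0.42, adjusted p = 0.0497).

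Among the Ifit genes, Ifit2 was higher with OVA, while Ifit1 and Ifit3 were called in no comparison. Ifit2 had log2 signals of 8.36, 8.26, 8.26 and 8.36 in air with OVA. It had 8.33, 7.87, 7.98 and 8.07 in DE 500 with OVA, and 7.76, 8.27, 8.56 and 8.03 in DE 2000 with OVA. With saline it had 7.79, 7.72, 7.25 and 8.01 in air, 7.40, 8.44, 8.21 and 7.31 in DE 500, and 7.07, 7.69, 7.45 and 7.72 in DE 2000. The OVA arrays lay above the saline arrays without overlap in air and in DE 2000, and overlapped in DE 500. The DE 500 saline arrays were split: the pair with low 3'/5' ratios, replicates 2 and 3, had 8.44 and 8.21, and the pair with high ratios had 7.40 and 7.31.

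Within DE 2000, Ifit2 averaged 8.15 ± 0.34 with OVA and 7.48 ± 0.30 with saline (SD, n = 4 each), a difference of 0.67 ± 0.23, or 1.59-fold (interval 0.19 to 1.15, limma adjusted p = 0.0485). In air the difference was 0.62 ± 0.23 (interval 0.13 to 1.10) and did not pass (limma, adjusted p = 0.0739), and in DE 500 it was 0.22 ± 0.23 (interval -0.26 to 0.71, adjusted p = 0.541). Averaged over the 3 exposures it was 0.50 ± 0.13, or 1.42-fold (limma, adjusted p = 0.00427). The Ifit2 call within DE 2000 held in 8 of 24 fits that left out 1 array, with adjusted p from 0.0327 to 0.155. It was lost without any 1 array of air with OVA, DE 500 with OVA or DE 2000 with saline, without replicate 2 or 3 of DE 2000 with OVA, and without replicate 1 or 2 of air with saline. Without replicate 1 of DE 2000 with saline it was 0.53 (adjusted p = 0.155). With the 3'/5' covariate the difference within DE 2000 was 0.41 (limma, adjusted p = 0.141), and with the B1 signal -0.13 (adjusted p = 0.825). In air Ifit2 was 0.23 with the 3'/5' covariate (limma, adjusted p = 0.617) and 0.08 with the B1 covariate (adjusted p = 0.936). It passed there without the 3 arrays of high ratio (0.62, adjusted p = 0.0191), with only the groups compared (0.62, adjusted p = 0.0284) and with array weights (0.55, adjusted p = 0.0235). The averaged Ifit2 difference was 0.36 without those 3 arrays (limma, adjusted p = 0.0232), 0.12 with the 3'/5' covariate (adjusted p = 0.607) and -0.15 with the B1 covariate (adjusted p = 0.75). Differences of Ifit2 from air lay between -0.25 and 0.14 and did not pass. The 0.14 of DE 500 with saline averages over its split arrays: it was 0.63 without the 3 arrays of high ratio (limma, adjusted p = 0.0899), 0.24 with the 3'/5' covariate and -0.02 with array weights. DE 2000 against DE 500 with saline was -0.36 for Ifit2 (limma, adjusted p = 0.937), and -0.84 without those 3 arrays (adjusted p = 0.019).

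Ifit1 was lower without overlap in 2 comparisons against air with saline, neither of them called. It had 8.80, 8.51, 8.85 and 8.76 in DE 2000 with saline and 8.94, 9.02, 9.05 and 8.92 in air with saline, a difference of -0.25 ± 0.13 (interval -0.52 to 0.01, limma adjusted p = 0.883). In air with OVA Ifit1 had 8.61, 8.59, 8.74 and 8.78, a difference from air with saline of -0.30 ± 0.13 (interval -0.57 to -0.04, limma adjusted p = 0.1). It was -0.30 with the 3'/5' covariate and -0.31 with the B1 covariate (limma, adjusted p = 0.304 and 0.489), and passed with quantile normalization (-0.37, adjusted p = 0.0457), scaling to the same median (-0.43, adjusted p = 0.0357) and array weights (-0.30, adjusted p = 0.0427). The air arrays with saline were the highest group of Ifit1, with a mean of 8.98 ± 0.06 (SD), and the other 5 groups averaged 8.68 to 8.80. Ifit3 ranged from 9.24 to 10.07 over the 24 arrays, its group means from 9.60 to 9.78, and each group overlapped the next in order of mean. Exhaust differences of Ifit3 were between -0.11 and -0.04, with intervals that lay within -0.46 to 0.30, and OVA differences between 0.06 and 0.13.

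Of the GTPases, Irgm1 stood lowest in both DE 500 groups, and Gbp2 was higher with OVA by 1 of its 2 probe sets. Irgm1 had 8.68, 9.14, 8.82 and 8.68 in DE 500 with saline, below all of 9.17, 9.36, 9.15 and 9.28 in air with saline. The difference was -0.41 ± 0.14, a 1.33-fold lower signal (interval -0.71 to -0.11), with an unadjusted p of 0.00902 in limma, and did not pass (adjusted p = 0.399). It was -0.38 with the 3'/5' covariate, -0.40 with the B1 covariate and -0.26 without the 3 arrays of high ratio (limma, adjusted p = 0.19, 0.223 and 0.364). With OVA, Irgm1 had 8.70, 9.26, 8.93 and 9.15 in DE 500 and 9.70, 9.22, 9.38 and 9.29 in air, an overlapping pair of groups that differed by -0.39 ± 0.14 (unadjusted p = 0.0126, limma adjusted p = 1). In DE 2000, Irgm1 differed from air by 0.02 ± 0.14 with saline (interval -0.28 to 0.32) and by -0.24 ± 0.14 with OVA (interval -0.54 to 0.06). DE 2000 against DE 500 gave 0.43 ± 0.14 with saline (limma, adjusted p = 0.838; 0.28 without the 3 arrays of high ratio) and 0.15 ± 0.14 with OVA (adjusted p = 0.736). The OVA differences of Irgm1 lay between -0.10 and 0.18.

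Igtp ranged from 9.03 to 10.31, its group means lay between 9.43 and 9.67, and each group overlapped the next. It differed from air by -0.17 ± 0.20 in DE 500 and -0.13 ± 0.20 in DE 2000 with saline, and by -0.06 ± 0.20 and 0.00 ± 0.20 with OVA. The value of 0.00 for DE 2000 with OVA rests on 1 array, replicate 3 at 10.31, beside 9.27, 9.20 and 9.17. Without that array the Igtp difference was -0.27 (limma, adjusted p = 0.651).

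The first probe set of Gbp2 had 9.57, 9.60, 9.08 and 9.35 in air with OVA, 9.59, 9.38, 9.41 and 8.94 in DE 500 with OVA, and 9.68, 9.36, 9.74 and 9.29 in DE 2000 with OVA. With saline it had 9.25, 9.19, 9.01 and 9.27 in air, 8.46, 9.44, 9.24 and 8.57 in DE 500, and 9.14, 9.40, 9.31 and 8.72 in DE 2000. The group means were higher with OVA in each exposure, and OVA and saline arrays overlapped in each. The differences were 0.22 ± 0.20 in air, 0.40 ± 0.20 in DE 500 and 0.38 ± 0.20 in DE 2000, none of them called, and 0.33 ± 0.12 averaged over exposures, or 1.26-fold (interval 0.09 to 0.57, limma adjusted p = 0.023). The averaged call ended with the 3'/5' covariate (0.03, adjusted p = 0.914) and with the B1 covariate (-0.20, adjusted p = 0.569). It was also lost without the 3 arrays of high ratio (0.22, adjusted p = 0.0904) and with arrays scaled to the same median (0.26, adjusted p = 0.0536). The second probe set of Gbp2 gave 0.05 ± 0.22 (interval -0.40 to 0.51, adjusted p = 0.857), with SDs of 0.25 to 0.94 within groups against 0.11 to 0.49 for the first. Within DE 2000 the first probe set passed without the 3 arrays of high ratio (0.45, limma adjusted p = 0.049). Differences of both Gbp2 probe sets from air lay between -0.54 and 0.16 and did not pass. For DE 500 with saline, where the arrays of high ratio had the first probe set at 8.46 and 8.57 and the others at 9.44 and 9.24, its difference from air was -0.25, and 0.17 without those arrays (limma, adjusted p = 0.638). The second probe set gave -0.54 there, and -0.81 without them (adjusted p = 0.277).

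**Figure D2:**
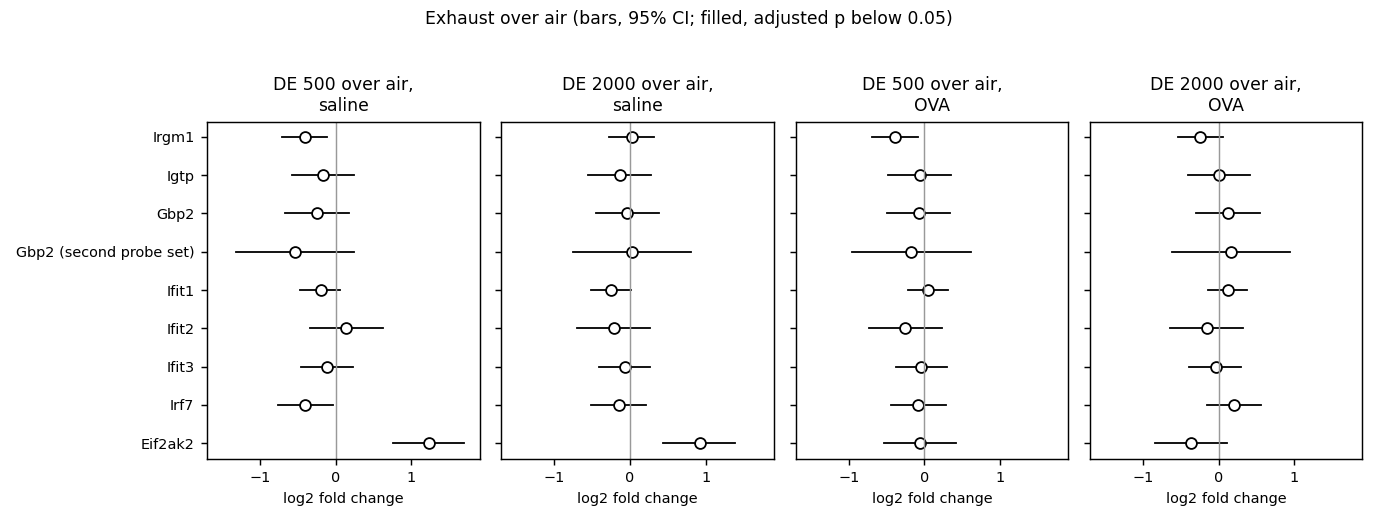
Log2 fold change of DE 500 or DE 2000 over air for the 9 tested probe sets, with saline (left pair of panels) and with OVA (right pair); bars are 95% intervals and no point is filled, since none was called. Eif2ak2 lies at 1.23 and 0.92 with saline and at -0.06 and -0.36 with OVA.

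Counted together, none of the 9 tested probe sets was called for exhaust. DE 500 against air with saline called 0 of 9, against 0.00737% of all tested probe sets (1 probe set). At an unadjusted p below 0.05 there were 3 of 9 (Eif2ak2, Irgm1 and Irf7), against 7.90% of all (1073). DE 2000 against air with saline called 0 of 9, against 0.147% (20), and 1 of 9, Eif2ak2, had an unadjusted p below 0.05, against 5.94% (807). Both doses had 1 probe set of 9 higher without overlap, Eif2ak2, and 1 lower, Irgm1 in DE 500 and Ifit1 in DE 2000. Of all tested probe sets, 1.61% were higher and 1.84% lower without overlap in DE 500, and 2.70% higher and 1.61% lower in DE 2000. The median difference of the 9 was -0.20 in DE 500 and -0.07 in DE 2000, against -0.01 over all tested probe sets in each. With OVA, DE 500 called 0 of 9, against 0% (0 of all), and DE 2000 called 0 of 9, against 0.0221% (3). With OVA, 1 of 9, Irgm1, had an unadjusted p below 0.05 in DE 500, against 0.921% (125), and 0 of 9 in DE 2000, against 8.13% (1103). With such small shares of calls among all probe sets, 0 of 9 does not set these genes apart.

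The remaining exhaust contrasts gave the same count. DE 2000 against DE 500 called 0 of 9 with saline, against 0.0516% of all, and 0 of 9 with OVA, against 0.0147%. Unadjusted p lay below 0.05 for 1 of 9 with saline, Irgm1, against 5.34%, and for 0 of 9 with OVA, against 10.0%. The interaction of exhaust with OVA called 0 of 9 at each dose, as it did among all probe sets (0%). At an unadjusted p below 0.05 the interaction counted 2 of 9 for DE 2000, Eif2ak2 and Ifit1, against 6.11%, and 1 of 9 for DE 500, Eif2ak2, against 3.09%. DE 2000 against air averaged over OVA and saline called 0 of 9, against 0.0884%, and 0 of 9 had an unadjusted p below 0.05, against 7.52%. The summed signal of 12 neutrophil genes was 8360 to 13700 in DE 2000 with saline and 4580 to 7000 in air with saline, without overlap. Of the 9 neutrophil genes tested, 1 was called higher there, Cd177, against 0.108% of all genes. An unadjusted p below 0.05 was found for 6 of them, against 5.44%, and all 9 differences were above 0. In DE 500 with saline the sum was 3880 to 7030. The part of the neutrophil genes in the Eif2ak2 differences was not tested.

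**Figure D3:**
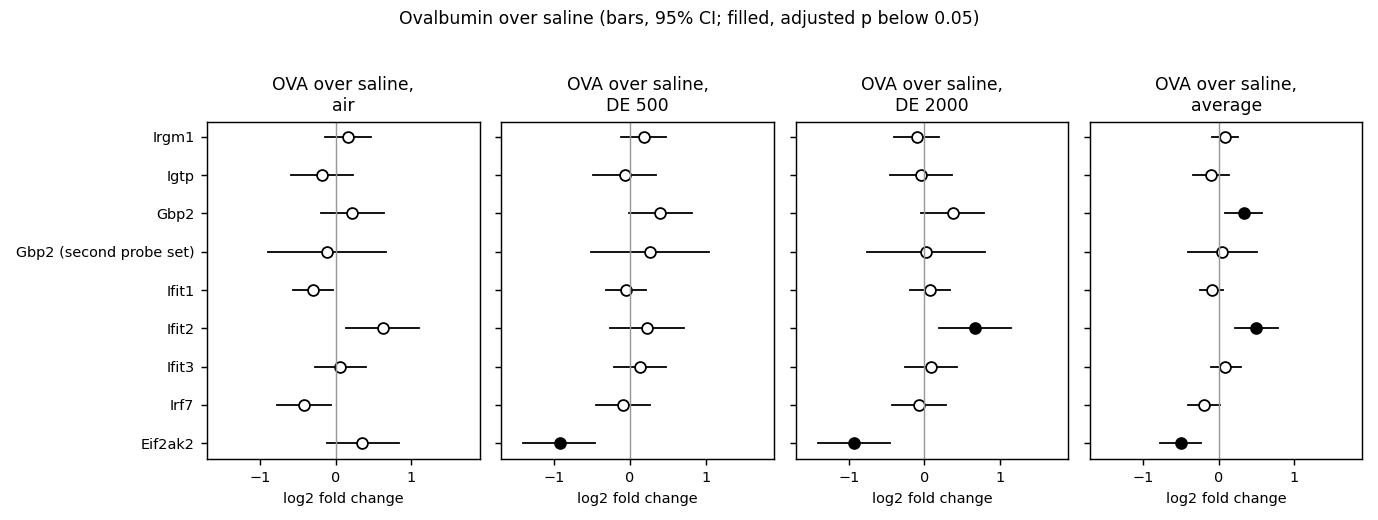
Log2 fold change of OVA over saline for the 9 tested probe sets in air, DE 500, DE 2000 and averaged over exposures; bars are 95% intervals and filled points were called. Eif2ak2 is filled at -0.93 in both exhaust doses and -0.50 in the average, Ifit2 at 0.67 in DE 2000 and 0.50 in the average, and Gbp2 at 0.33 in the average. In air Eif2ak2 lies at 0.35, not called.

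For OVA, 0 to 3 of the 9 probe sets were called in each comparison, shares near or below those of all probe sets. In air 0 of 9 were called, against 14.8% of all tested probe sets (2004), and 3 of 9 (Ifit2, Irf7 and Ifit1) had an unadjusted p below 0.05, against 32.5% (4418). In air, Ifit2 was higher and Ifit1 lower without overlap, 1 of 9 each, against 15.3% higher and 13.8% lower among all. In DE 500 1 of 9 was called, Eif2ak2, against 12.5% in either direction and 6.64% lower, and its lack of overlap compares with 8.28% lower among all. In DE 2000 2 of 9 were called, against 18.1%: Ifit2, against 7.68% higher, and Eif2ak2, against 10.4% lower. Neither of the 2 overlapped between its groups, against 7.81% higher and 11.2% lower among all. Averaged over exposures 3 of 9 were called, against 46.3%: Gbp2 and Ifit2 higher, against 22.7%, and Eif2ak2 lower, against 23.6%. Eif2ak2 averaged -0.50 ± 0.13 there (limma, adjusted p = 0.00378), and with the 3'/5' or the B1 covariate it was -0.42 (adjusted p = 0.111) or -0.45 (adjusted p = 0.336). That average joins opposite directions of Eif2ak2, 0.35 in air and -0.93 in each exhaust dose. The median difference of the 9 lay between 0.02 and 0.13 in the 4 OVA comparisons, against -0.03 to 0.01 over all tested probe sets.

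The 3'/5' ratio varied most among the saline arrays. There Ifit2, Irgm1 and the first probe set of Gbp2 tended to be lower where the ratio was higher. Of these, only the rank correlation of Irgm1 passed after adjustment. Over the 12 saline arrays, Pearson r was taken with group means removed. For the rank correlation rho, values were ranked over the 12 arrays and the group means of the ranks were then removed. Ifit2 had r = -0.87 with the log2 ratio (exact permutation within groups, two-sided, p = 0.0181, BH over 9 probe sets 0.126) and rho = -0.84 (p = 0.0247, BH 0.111). Without the 2 arrays farthest from the median ratio, replicates 1 and 4 of DE 500 with saline, r was -0.68. The first probe set of Gbp2 had r = -0.82 (exact permutation p = 0.0436, BH 0.131) and rho = -0.68 (p = 0.078, BH 0.234). It had r = -0.27 without those arrays, on which the relation rests. The second probe set of Gbp2 did not show it (r = 0.18, rho = -0.01). Irgm1 had r = -0.71 (exact permutation p = 0.0279, BH 0.126) and rho = -0.68 (p = 0.00362, BH 0.0326), and r = -0.43 without them. Eif2ak2 had r = 0.51 (exact permutation p = 0.212, BH 0.477) and rho = 0.54 (p = 0.184, BH 0.414), and r = -0.20 without them. The second probe set of Gbp2 and the other probe sets not named here had r between -0.21 and 0.25. Of the 12 OVA arrays 11 lay within -0.13 to 0.20, so the relation could not be tested among them.

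**Figure D4:**
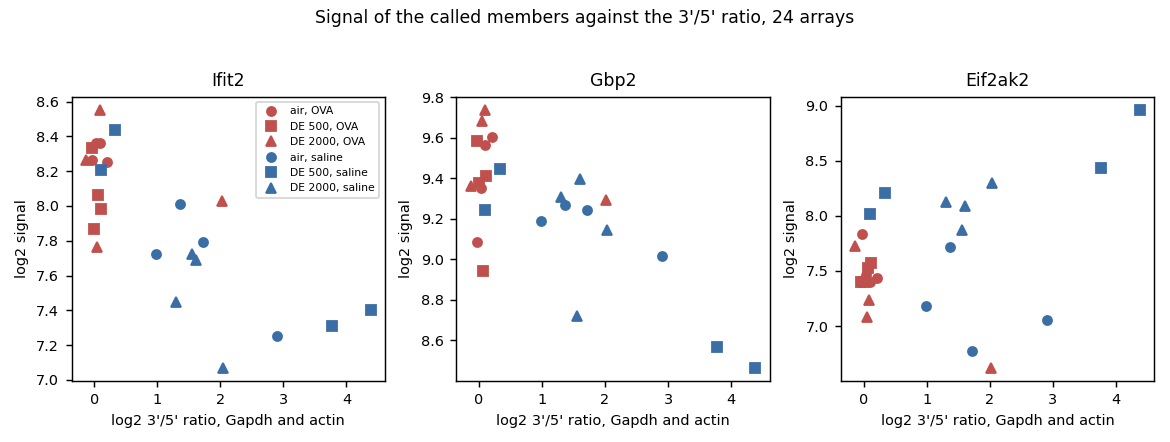
Log2 signal of the 3 called genes, Ifit2, Gbp2 and Eif2ak2, against the log2 3'/5' ratio of Gapdh and actin on the 24 arrays. Gbp2 and Eif2ak2 are shown by their first probe sets. Red is OVA, blue saline, and shape gives the exposure. OVA arrays lie at low ratios apart from 1 at 2.02, and the DE 500 saline arrays at 4.38 and 3.77 have low Ifit2 (7.40 and 7.31) and high Eif2ak2 (8.97 and 8.43).

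The rest of the interferon pathway was read from a list of 111 other genes, of which 87 were on the array and 64 were tested. None of the 64 was called for exhaust at either dose, in either arm, or in an interaction. Among all 8315 genes, at most 0.108% were called higher and 0% lower in any of these comparisons. Against such shares, 0 of 64 does not set the list apart. For DE 2000 with saline the smallest p among effectors belonged to Trim30a (0.38 ± 0.20) and the tetherin gene Bst2 (-0.40 ± 0.27). Among receptors and signal proteins it belonged to the adaptor Mavs (0.37 ± 0.22) and the interferon receptor Ifnar1 (0.23 ± 0.15). Among sensors, GTPases and inhibitors the pairs were Tlr3 (-0.29 ± 0.21) and Sting1 (-0.24 ± 0.52), Irgm2 (-0.20 ± 0.21) and Gbp7 (-0.12 ± 0.13), and Socs3 (0.25 ± 0.23) and Pias1 (-0.15 ± 0.13). Antigen presentation, transcription factors and ISG15 conjugation gave B2m (-0.38 ± 0.22) and Psme1 (-0.18 ± 0.14), Irf8 (0.09 ± 0.15) and Irf2 (0.09 ± 0.21), and Usp18 (-0.13 ± 0.14) and Uba7 (-0.09 ± 0.14). The 1 tested ligand, Il18, gave 0.13 ± 0.14. Adjusted p in limma was 0.915 or more for all of these. Counts at an unadjusted p below 0.05 were read against the share of all 8315 genes, and the genes named for them were chosen after their values were seen. With saline there were 0 of 64 for DE 2000, against 5.44%, and 2 for DE 500, against 7.3%: Ifi35 (-0.41 ± 0.16, limma adjusted p = 0.461) and Mavs (0.55 ± 0.22, adjusted p = 0.486). With OVA there were 4 for DE 2000, against 8.09% (H2-K1, Ifi47, Irf1 and Psmb10, all above 0), and 1 for DE 500, against 0.914% (Oasl1, 0.53 ± 0.23, adjusted p = 1). DE 2000 against DE 500 had 3 of 64 with saline, against 5.75% (Tapbp, Irf9 and Ifngr1). With OVA it had 10, against 9.85%, of which those of smallest p were Psmb10, an immunoproteasome subunit (0.60 ± 0.17), and the GTPase Ifi47 (0.61 ± 0.18, limma adjusted p = 0.424 for both). The interaction had 1 of 64 for DE 2000, H2-K1, against 5.36%, and 0 for DE 500, against 2.81%. DE 2000 against air averaged over both arms had 1, Ifnar1, against 7.61%.

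OVA against saline, averaged over exposures, called 7 of the 64 higher and 17 lower, against 19.2% and 24.4% of all 8315 genes, and the median of the list was -0.06 against -0.03. Called lower were Stat3, the transducer of IL-6 signals (-0.61 ± 0.06, limma adjusted p = 9.33e-08), Trim25, the ligase that activates RIG-I (-0.72, adjusted p = 1.28e-06), Uba7, the enzyme that activates ISG15 (-0.63, adjusted p = 4.47e-06), and Ifngr1, the interferon-gamma receptor (-0.66, adjusted p = 2.65e-05). Called higher were B2m, the light chain of MHC class I (0.94, limma adjusted p = 8.46e-06), the exonuclease Isg20 (0.56, adjusted p = 0.00015), the DNA-sensing adaptor Sting1 (1.39, adjusted p = 0.000734) and Irf9, a transcription factor of the interferon response (0.38, adjusted p = 0.00122). Other probe sets of Stat3 gave -0.22 and 0.15, the second not called (limma, adjusted p = 0.588), while those of Trim25, Uba7 and B2m were called in the same direction. With the 3'/5' covariate the 4 lower genes, Isg20 and B2m were still called, and Sting1 (0.74, adjusted p = 0.152) and Irf9 (0.17, adjusted p = 0.254) were not. With the B1 covariate only Stat3 of these 8 was called (-0.59, limma adjusted p = 0.00356). Within single exposures the list had 1 gene called higher and 7 lower in air, against 5.36% and 7.73% of all genes. It had 3 higher and 3 lower in DE 500, against 4.57% and 6.21%, and 3 higher and 6 lower in DE 2000, against 6.88% and 10.1%. The 1 called higher in air and 1 of the 3 in each exhaust dose was B2m. Markers of plasmacytoid dendritic cells, known as strong producers of type I interferon, summed over 4 genes to 3120 to 3620 in air with OVA and 4430 to 4730 in air with saline. The groups overlapped in DE 500, at 3190 to 3620 with OVA and 3220 to 4260 with saline, and in DE 2000, at 2840 to 4990 with OVA and 3860 to 4250 with saline. Of the 4 genes, 3 were above the limit on signal, and Bst2 averaged a log2 signal of 7.97 in air with saline. The sum therefore weighs the genes unequally. In air, 1 of the 3 tested markers was called lower (Tcf4), against 7.73% of all genes. For 1 of the 3 the difference was above 0, and the median was -0.29. Among all tested probe sets, 13.8% were lower without overlap in air. The marker Bst2 is also on the pathway list. Averaged over exposures the 3 tested markers had a median difference of 0.00, with 1 called lower (Tcf4), against 24.4% of all genes. The part of these markers in the list's differences was not tested.

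The genes that followed each member most closely from array to array were ranked by Pearson correlation over the 24 arrays after removing group means, as a description with no test. Igtp was closest to Tap1, a peptide transporter of antigen presentation that is itself induced by interferon (r = 0.75, Spearman rho = 0.78), followed by Fbl and Hadhb (r = 0.74 and 0.73). Ifit3 was closest to Iigp1, another immunity-related GTPase (r = 0.80, rho = 0.80), followed by Ppp3cb and Pomp (r = 0.76 and 0.75). Eif2ak2 was closest to the chromatin remodeller Atrx (r = 0.81), the kinase gene Cdk12 (r = 0.81) and Snx6 (r = 0.75), none of them on the interferon list. Ifit2 was closest to Plrg1, B3gnt2 and Krcc1 (r = 0.82 each), and Gbp2 to Cdo1, Pde12 and Tm2d2 (r = 0.86, 0.85 and 0.83). On the same residuals the 3'/5' ratio had r = -0.74 with Ifit2 and r = -0.67 with the first probe set of Gbp2. It had 0.16 with Eif2ak2, -0.06 with Ifit3 and -0.11 with Igtp. Irf7 was closest to Hs2st1, Stx2 and Hvcn1 (r = 0.86, 0.79 and 0.78), Irgm1 to Ppp2ca, Dld and Bace1 (r = 0.77, 0.74 and 0.71), and Ifit1 to Polrmt, Col5a3 and Hint3 (r = 0.75, 0.75 and 0.70). Among the members themselves the highest values were r = 0.56 for Igtp with Irf7, 0.54 for Gbp2 with Ifit2 and 0.52 for Igtp with Ifit3, and the lowest was -0.47 for Ifit1 with Ifit2. The arrays also share total signal scaling and differ in RNA quality. Whether these or a shared control of the genes underlie the correlations was not tested.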

How the data were processed

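The 24 arrays carry biotin-labelled cRNA from 2 ug of total RNA of frozen lung, per the labels' protocols. The deposited values are MAS5 intensity signals, on a linear scale, computed by the authors with MAS5 per the submitters' processing notes (version not given in the sources used here). Trimmed means were 499.9 on every array, so the authors' signals were already scaled, and array medians were 182 to 243. Of 22690 probe sets, 64 controls were set aside. The deposited signals were converted to log2 with no pseudocount, and the 13575 probe sets above the 40th percentile of mean log2 signal (a signal of 138) were tested.

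All 24 arrays entered 1 linear model of group means (limma 3.58.1, R 4.3.3; lmFit, contrasts.fit, eBayes with trend), with 13 comparisons, two-sided tests and Benjamini-Hochberg adjustment over all tested probe sets. The fit was tested on simulated data. Other genes were counted by 1 probe set each, the one with the highest mean. Python 3.11.15 with pandas 2.3.3, numpy 2.4.6 and matplotlib 3.10.9 made tables, permutation tests and figures.

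All member probe sets are named. Of the pathway list, up to 4 called genes per direction are named in the averaged OVA comparison, and the 2 of smallest p per role for DE 2000 with saline. The 3 most correlated genes are named per member. The members, lists, tests and alternatives were chosen with earlier results of these data known. Replicate numbers were not taken to pair the samples. Over 60 pairs of arrays with the same number, the residual correlation averaged 0.03, between -0.43 and 0.59. Pairs with different numbers were not compared, so these values do not settle whether some groups were paired. Gene names are those of the array annotation, and promoters come from RefSeq (GRCm38.p6).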

Additional observations from a re-analysis of the deposited data

Results flagged for a closer look

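Among 72 sets of 4 arrays (the members and the 2 measures of RNA quality in each group), 4 held an array whose gap to the nearest of the others exceeded Dixon's 95% critical value, and chance alone flags about 1 in 20 sets. Igtp was 10.31 on replicate 3 of DE 2000 with OVA, where the other arrays had 9.17 to 9.27. Eif2ak2 was 7.84 on replicate 3 of air with OVA, where the others had 7.40 to 7.46; without that array its difference of OVA from saline in air was 0.25 (limma, adjusted p = 0.528). Replicate 4 of DE 2000 with OVA had a log2 3'/5' ratio of 2.02, against -0.13 to 0.09 on the others, and a B1 log2 signal of 12.43, against 10.85 to 11.06.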

How the results depend on the processing

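The 9 probe sets were refitted under 13 other settings and, apart from these, without each array in turn. Of the 1482 values under the 13 settings, 1444 kept their direction or stayed uncalled (47 of these changed sign while called in neither fit), 20 passed only in the alternative, 15 passed only as reported and 3 reversed. The reversals came with the B1 covariate: Ifit2 to -0.13 within DE 2000, and Ifit2 to -0.15 and Gbp2 to -0.20 in the average over exposures. The number of the 9 called for DE 2000 against air with saline was 0, and 1 (Eif2ak2) with array weights or without the 3 arrays of high 3'/5' ratio. For DE 500 against air with saline it was 0, and 1 (Eif2ak2) with a pseudocount of 50, 1 probe set per gene, the 3'/5' covariate, the B1 covariate or without those 3 arrays. For DE 2000 against DE 500 with saline it was 0, and 1 without those arrays (Ifit2, -0.84, limma adjusted p = 0.019). For OVA in air it was 0, 2 with quantile normalization or scaling to the same median (Ifit1 and Irf7), 2 with array weights (Ifit1 and Ifit2), and 1 with only the groups compared, the replicate block (Irf7) or without the 3 arrays. For OVA in DE 500 it was 1, and 0 with the filter at the 60th percentile (where Eif2ak2 was not tested), only the groups compared, either covariate or without the 3 arrays. For OVA in DE 2000 it was 2, and 1 with no filter, only the groups compared, the replicate block or the 3'/5' covariate. It was 0 with the B1 covariate. It was also 0 with the stricter filter, where neither Ifit2 nor Eif2ak2 was tested. Without the 3 arrays it was 3, where Gbp2 passed. Averaged over exposures it was 3, and 4 with quantile normalization, where Irf7 passed (-0.25, limma adjusted p = 0.0418). It was 2 without the 3 arrays (no Gbp2) and 0 with either covariate. With the stricter filter, where Ifit2 and Eif2ak2 were not tested, it was 1. Scaling to the same median gave 3 as well, with Irf7 (-0.26, adjusted p = 0.0318) in place of Gbp2. Leaving out 1 array gave 0 to 1 for DE 2000 with saline, 0 to 1 for DE 500 with saline, 0 to 2 for OVA in DE 500, 1 to 2 for OVA in DE 2000, 0 to 1 for the DE 2000 interaction and 3 to 4 in the OVA average. Gbp2 passed for OVA in DE 500 without replicate 2 of DE 500 with saline (0.57, adjusted p = 0.0439). The replicate number as a replicate block gave Ifit2 0.67 (limma, adjusted p = 0.0568) for OVA in DE 2000 and Irf7 -0.42 (adjusted p = 0.0497) for OVA in air, and changed no other call of the 9. In the reported fit, replicate numbers were not taken to pair the samples. Apart from the filter, which tests fewer probe sets, and fits on fewer arrays, the cause of each change was not tested.

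Scaling to the same median moved the median difference of all tested probe sets for OVA in air from -0.01 to -0.13, and the share of higher calls in that comparison from 51.6% to 39.5%. The number of all probe sets called for the OVA average was 6284, and 1917 with the 3'/5' covariate or 557 with the B1 covariate. Eif2ak2, with a signal of 200, stands nearest the limit of 138. The OVA and saline arrays differ in the 3'/5' ratio and in the B1 signal. For these genes OVA cannot be fully told apart from either of them.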
